A study of Mus musculus with 2 samples.

Results

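Mir150, Mir142, Mir142b and Mir223 are microRNA genes of white blood cells, and they were followed here in small RNA libraries of whole heart. The genes were chosen by their symbol in the GENCODE M21 annotation, and 4 of the 2202 microRNA genes counted carry these names. The heart tissue came from adult female mice of B6CASTF1/J, a first-generation hybrid of C57BL/6J and CAST/EiJ, aged 18 to 20 months, with no treatment in the labels. The series holds 1 group of 2 libraries, replicate 2 and replicate 1, whose labels give each its own tissue record and both the same donor record. Whether they are separate animals is not settled by that, so SDs measure only the spread between these libraries, which may be technical. The p-values set counts against counting noise only and do not measure that spread. With 1 group there is no contrast between conditions, and the data give the level of each gene in the aged heart, its relation to the others of the set and its difference between the libraries.

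MicroRNAs are short RNAs cut from a hairpin precursor. One arm or the other is loaded into an Argonaute protein, which it guides to messenger RNAs through its seed, the bases near its 5′ end. The genes described here are known from blood cells. miR-150 is a microRNA of mature lymphocytes and is known to repress Myb, a transcription factor of lymphocyte precursors. miR-142 is made across the blood lineages and is often used to mark them. miR-223 is known from the myeloid line, above all neutrophils, and is also carried by platelets. In a heart, such RNAs can come from blood left in the vessels and from leukocytes resident in the tissue, and in bulk samples more cells of a type and more RNA per cell cannot be told apart.

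The sequences below show what could be counted at each locus, with bases 2 to 8, the seed, in capitals. They are RefSeq's, on GRCm38.p6, the build that mm10 names, and 6 mature forms of the 4 genes were in its table; miR-150-5p is named only.
miR-150-3p: cUGGUACAggccugggggauag
miR-142a-5p: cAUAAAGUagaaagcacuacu
miR-142a-3p: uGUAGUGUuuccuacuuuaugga
miR-142b: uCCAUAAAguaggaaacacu
miR-223-5p: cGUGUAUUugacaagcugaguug
miR-223-3p: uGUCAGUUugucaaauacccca
No 2 of these 6 share a seed, and 0 other mature mouse microRNAs in the table have any of these seeds. miR-150-5p was not in the table, so its seed was not compared. As far as these 6 forms show, the set is grouped by the cells it is known from and not by seed. The files count reads per hairpin gene, so the arms of 1 hairpin were not told apart.

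Mir142 and Mir142b are printed as hairpins because they lie on opposite strands of the same stretch of chromosome 11, with the mature forms in capitals.
Mir142: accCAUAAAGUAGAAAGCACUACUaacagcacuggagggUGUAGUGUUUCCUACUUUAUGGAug
Mir142b: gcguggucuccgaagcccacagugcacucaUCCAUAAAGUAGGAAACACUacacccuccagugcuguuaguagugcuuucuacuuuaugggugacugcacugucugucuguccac
The 64 nt of Mir142, on the plus strand at mm10 chr11:87756864-87756927, are contained as reverse complement in the 115 nt of Mir142b, on the minus strand at chr11:87756841-87756955. miR-142b is the reverse complement of 20 bases of miR-142a-3p. It also resembles miR-142a-5p, with 16 of 18 bases equal in their best overlap without gaps, because the arms of a hairpin pair with each other. Both hairpins lie between exons 1 and 2 of the long noncoding RNA Mir142hg, Mir142 on its strand and Mir142b against it. Mir223, 110 nt on the plus strand at chrX:96242817-96242926, lies within an exon of the noncoding gene F630028O10Rik on the same strand. Mir150, 65 nt on the plus strand at chr7:45121757-45121821, overlaps no other annotated gene, and the nearest, the noncoding Gm45552, begins after a gap of 95 nt.

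Apart from the overlap of Mir142 with Mir142b, no gene of the set shares a hairpin stretch with another microRNA locus. Reads that fitted several places entered no gene count, and they took 43.2% of the reads of replicate 2 and 43.9% of those of replicate 1. Among the 316 genes with at least 10 counts in each library, called detected here, 73 share a run of 20 nt or more with a microRNA hairpin elsewhere in the genome. Of the 4 genes of the set, 0 do so. The reads were placed on a C57BL/6J reference, and the effect of CAST/EiJ variants on these counts was not tested.

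Sense-strand reads on microRNA genes numbered 3676084 in replicate 2 and 3383676 in replicate 1. Levels are given as counts per 1000000 of these (CPM), and 0 counts allow up to 0.816 CPM in replicate 2 and 0.887 CPM in replicate 1, a limit set by 3 counts. Intervals and limits cover counting error only, since amplified reads without molecular identifiers are not independent molecules. The heart muscle genes Mir499 and Mir208a, which lie in myosin genes, were at 3567 and 1247 CPM in replicate 2 and at 3977 and 1588 CPM in replicate 1. The muscle genes of miR-1 and miR-133 were far lower. They ran from 2.18 CPM (Mir1a-1) to 61.8 CPM (Mir1a-2) in replicate 2 and from 1.48 CPM (Mir133a-1) to 82.2 CPM (Mir1a-2) in replicate 1. Whether multimapping reads belong to them was not tested, and ranks given below are by counts without such reads. Over all detected genes, the biological coefficient of variation between the libraries was 0.422 by edgeR's common dispersion.

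The lymphocyte gene Mir150 was the highest of the set in both libraries, followed by Mir142, the gene of all blood lineages, and by the myeloid gene Mir223. Mir142b had no sense count. Together the 4 genes took 0.938% of the sense counts of replicate 2 (Wilson 95% interval 0.928 to 0.948) and 0.305% of those of replicate 1 (0.299 to 0.311), a mean of 0.622% ± 0.448 (SD, n = 2). Mir150 made up 82.5% of these counts in replicate 2 and 76.9% in replicate 1. The set was thus a small part of the libraries, and most of its counts were those of Mir150.

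Mir150 had 28443 counts in replicate 2 and 7935 in replicate 1. These are 7737 CPM in replicate 2 (Wilson 95% interval 7648 to 7827) and 2345 CPM in replicate 1 (2294 to 2397). Replicate 2 was the higher library by far more than counting error, and the mean of 5041 ± 3813 CPM (SD, n = 2) has an SD of 75.6% of its value. Among all 2202 genes Mir150 ranked 22 by counts in replicate 2 and 39 in replicate 1. By mean CPM it stood at rank 28, between Mir93, of the Mcm7 intron cluster (5140 ± 609 CPM), and Mir155, induced in activated lymphocytes and macrophages (4574 ± 435 CPM). Neighbours in this order have like means by the way they were picked. Within each library they differed from Mir150, with Mir93 at 5571 CPM in replicate 2 and 4709 CPM in replicate 1.

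Mir142 had 4862 counts in replicate 2 and 1930 in replicate 1. These are 1323 CPM (Wilson 95% interval 1286 to 1360) and 570 CPM (546 to 596), again with replicate 2 the higher. The mean was 946 ± 532 CPM (SD, n = 2), at rank 67, with rank 57 in replicate 2 and 77 in replicate 1. Its neighbours in the order of means, picked by that order, were Mir10b at 1008 ± 663 CPM and Mirlet7a-1 at 941 ± 99.5 CPM.

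Mir223 had 1185 counts in replicate 2 and 450 in replicate 1. These are 322 CPM (Wilson 95% interval 305 to 341) and 133 CPM (121 to 146), so that the libraries kept the order seen for Mir150 and Mir142. The mean was 228 ± 134 CPM (SD, n = 2), at rank 100, with rank 95 in replicate 2 and 125 in replicate 1. Mir490 (231 ± 72.8 CPM) and Mir541 (226 ± 96.1 CPM) stood next to it in the order of means.

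**Figure D1:**
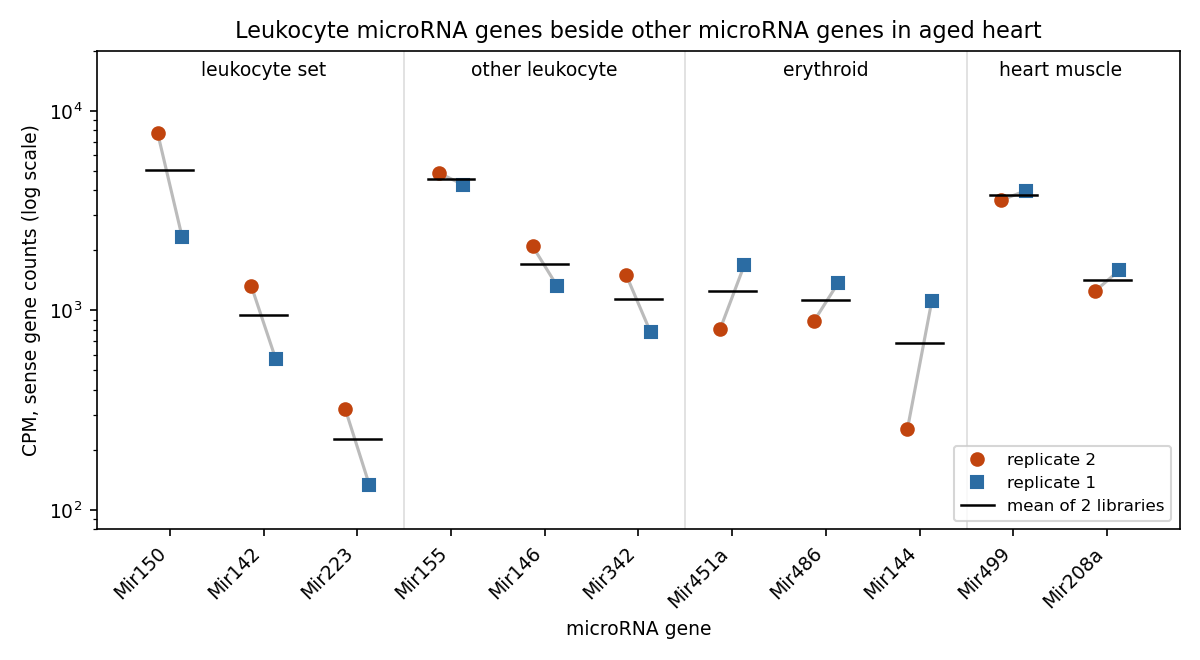
CPM on sense gene counts (log axis) of Mir150, Mir142 and Mir223 beside the 3 highest genes of the other leukocyte list, the 3 highest erythroid genes and 2 heart muscle genes; circles are replicate 2, squares replicate 1 and black lines their mean. Mir150, Mir142 and Mir223 stand higher in replicate 2, at 7737, 1323 and 322 CPM, than in replicate 1, at 2345, 570 and 133 CPM, while Mir451a, Mir486 and Mir144 stand lower there; Mir142b, with 0 counts, is not drawn.

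How the strands were counted decides whether Mir142 is seen at all. In the sense column Mir142 had 4862 counts in replicate 2 and 1930 in replicate 1, while Mir142b had 0 in both. The antisense column held the same numbers with the genes exchanged, 4862 and 1930 for Mir142b and 0 for Mir142. All counted reads of the locus thus ran along the plus strand, and equal numbers for the shorter and the longer gene mean that no read was counted in the flanks of Mir142b alone. Against the limit of 3 counts per library, Mir142 was at least 1621-fold higher than Mir142b in replicate 2 and at least 643-fold higher in replicate 1.

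In the column for reads on either strand, Mir142 and Mir142b were both listed at 0 in both libraries. A read on the overlap fits both genes when strand is ignored, and that column sets such reads aside as ambiguous, 852067 in replicate 2 and 925685 in replicate 1. In the sense and antisense columns 0 reads were ambiguous. The counts of Mir142 would be 0.571% of the ambiguous reads in replicate 2 and 0.208% in replicate 1. Of the 316 detected genes, 22 (6.96%) were listed at 0 in the either-strand column of both libraries, the erythroid gene Mir451a and the muscle gene Mir1a-2 among them, and all 22 overlap an annotated microRNA on the opposite strand.

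Mir150 and Mir223, which have no annotated microRNA on the other strand, were hardly affected. Mir150 had 4 antisense counts in replicate 2, or 0.0141% of its reads (exact 95% interval up to 0.0360%), and 0 in replicate 1 (up to 0.0465%). Mir223 had 0 antisense counts in either library (exact 95% interval up to 0.311% in replicate 2 and 0.816% in replicate 1). Reads at these loci were thus nearly all on the annotated strand.

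**Figure D2:**
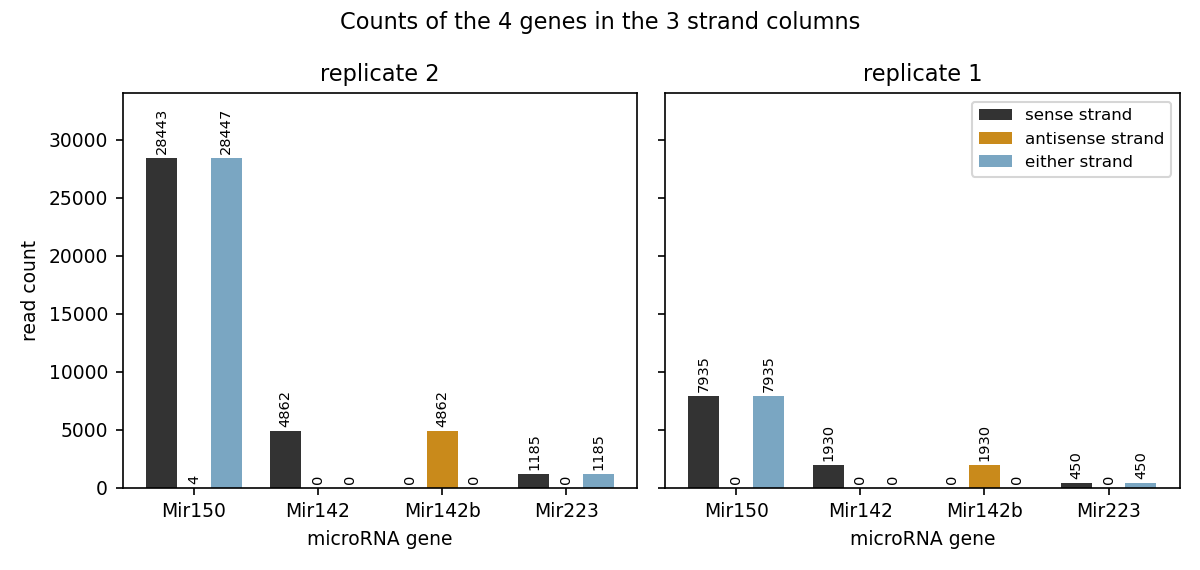
Read counts of the 4 genes on the sense, antisense and either strand in replicate 2 (left) and replicate 1 (right), with the count above each bar. The reads of Mir142, 4862 and 1930, stand in the antisense column of Mir142b and are missing from the either-strand column, while Mir150 and Mir223 have nearly equal sense and either-strand bars.

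All 3 detected genes of the set were higher in replicate 2. Mir150 was 3.03-fold higher (exact 95% interval 2.95 to 3.10), a log2 ratio of 1.60 after scaling by TMM, edgeR's trimmed mean of M-values. Mir223 was 2.22-fold higher (1.99 to 2.49; log2 ratio 1.15) and Mir142 was 2.13-fold higher (2.02 to 2.24; log2 ratio 1.09). An exact binomial test (two-sided) of each gene's pair of counts, with Benjamini-Hochberg adjustment over the 316 detected genes, called the 3 genes at 0.05, with adjusted p of 2.75e-188 for Mir142, 4.40e-51 for Mir223 and a value too small to be held as a number for Mir150. The test sets the libraries against counting noise, not against biological spread, and says nothing of a condition.

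At this depth such a call is common. The test called 60.4% of the 316 genes, 33.2% as higher and 27.2% as lower in replicate 2. A call together with a ratio of 2-fold or more toward replicate 2 was reached by 10.1% of the genes, and Mir150, Mir142 and Mir223 are among these 32. In the order of log2 ratios toward replicate 2, Mir150 stood at rank 17, Mir223 at rank 26 and Mir142 at rank 29 of 316. The median log2 ratio of all detected genes was 0.05 and that of the 3 genes 1.15, against a 90th percentile of 1.02 over all detected genes, so each of the 3 lay in the upper tail.

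**Figure D3:**
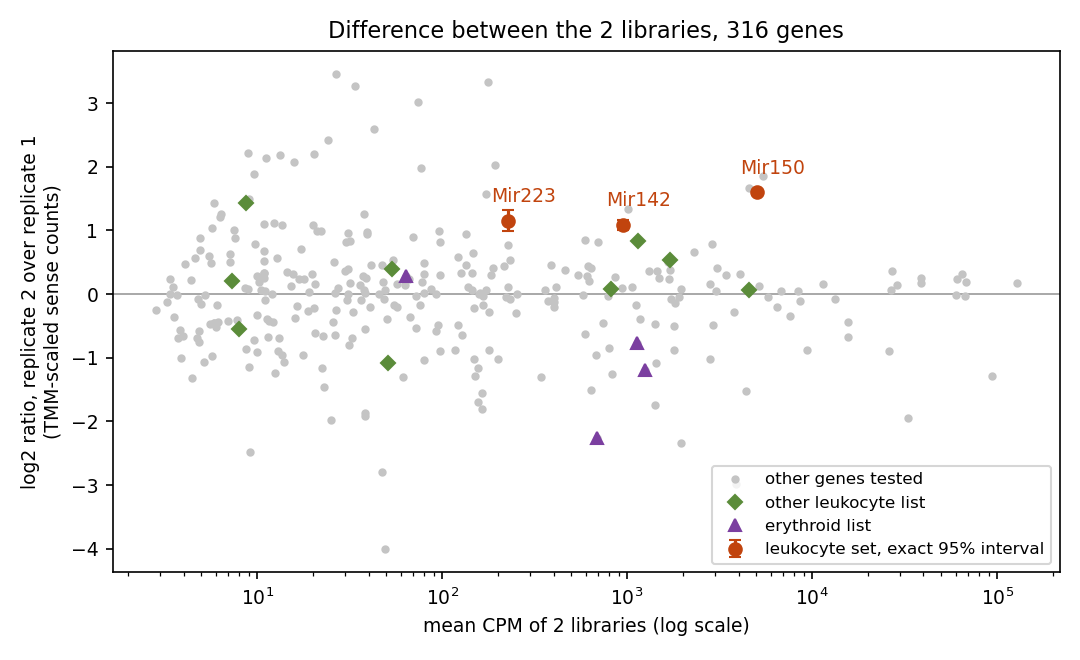
Log2 ratio of replicate 2 over replicate 1 on TMM-scaled sense counts against mean CPM (log axis) for the 316 detected genes, with exact 95% intervals for Mir150, Mir142 and Mir223. These 3 lie at 1.60, 1.09 and 1.15, while the other leukocyte list spreads from -1.08 to 1.43 and 3 of 4 erythroid genes lie below 0.

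Ratios within a library do not depend on scaling, but they compare counts of different sequences, whose recovery into the libraries was not tested. The tests of change in these ratios between the libraries cover counting error only, so a call does not show a change beyond the spread between libraries. Counts of Mir142 over Mir223 stood at 4.10 in replicate 2 (exact 95% interval 3.85 to 4.38), against 4.29 in replicate 1 (3.87 to 4.76). This ratio changed by 0.957-fold between the libraries (exact 95% interval 0.846 to 1.08), and Fisher's exact test, two-sided and adjusted over the 3 ratios, did not call it (adjusted p = 0.482). Counting error alone thus allows this ratio to be equal in both libraries.

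Mir150 was higher relative to both in replicate 2. It was 5.85 times Mir142 in replicate 2 (exact 95% interval 5.67 to 6.03), against 4.11 times in replicate 1 (3.91 to 4.32). Fisher's exact test called this 1.42-fold change (adjusted p = 6.59e-31). Mir150 was 24.0 times Mir223 in replicate 2 (22.6 to 25.5) and 17.6 times in replicate 1 (16.0 to 19.4), a 1.36-fold change that was also called (Fisher's exact test, adjusted p = 1.61e-07). The biological coefficient of variation over all detected genes was 0.422, and whether the genes differ in their shift beyond that spread was not tested.

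**Figure D4:**
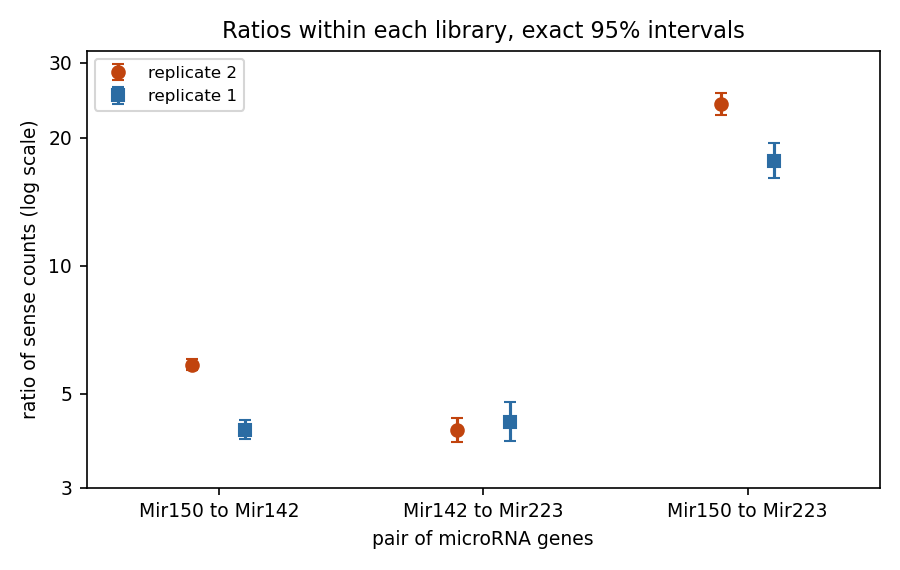
Ratios of sense counts between pairs of the 3 detected genes (log axis) in replicate 2 (circles) and replicate 1 (squares), with exact 95% intervals. The intervals of Mir142 to Mir223 overlap, at 4.10 and 4.29, while those of Mir150 to Mir142, at 5.85 and 4.11, and of Mir150 to Mir223, at 24.0 and 17.6, do not.

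Mir499 and Mir451a, markers of heart muscle and of red blood cells, were both lower in replicate 2 (log2 ratios -0.28 and -1.20), so differences of the set taken relative to them are larger by construction. Per 1000 counts of the heart muscle gene Mir499, Mir150 had 2169 counts in replicate 2 and 590 in replicate 1. Mir142 had 371 and 143 on the same scale, and Mir223 had 90.4 and 33.4. Mir150 thus outnumbered Mir499 in replicate 2 only. Per 1000 counts of Mir451a, the main microRNA of red blood cells, Mir150 had 9638 in replicate 2 and 1387 in replicate 1, Mir142 had 1648 and 337, and Mir223 had 402 and 78.6. Such a ratio does not show which of its genes differed. On TMM-scaled counts, Mir150, Mir142 and Mir223 were higher in replicate 2 and Mir451a was lower.

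Other leukocyte microRNAs went both ways. The list of 11 names held 10 annotated genes, of which 9 were detected, and the test called 6 higher and 1 lower in replicate 2, with a median log2 ratio of 0.20, where over all genes tested it called 33.2% higher and 27.2% lower. With DESeq2 size factors 4 were higher and 1 lower, since Mir155 and Mir181b-2 lost their calls. Among all 316 genes these size factors gave 93 higher and 94 lower. The summed level was 9486 CPM in replicate 2 and 7263 CPM in replicate 1. Mir342, in an intron of Evl, was at 1501 CPM in replicate 2 and 776 CPM in replicate 1 (log2 ratio 0.83). Mir146, induced by inflammatory signalling, was at 2100 and 1330 CPM (0.54). Mir155 was at 4882 and 4266 CPM (0.07), so the most abundant gene of this list differed little. Mir511, in the macrophage gene Mrc1, had 48 counts in replicate 2 and 15 in replicate 1 (1.43). The gene called lower was Mir181a-2, with 127 counts in replicate 2 and 227 in replicate 1.

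Markers of other cells differed between the libraries as well, as did most genes. Over all 316 genes tested, 33.2% were called higher and 27.2% lower in replicate 2. Of 4 detected erythroid genes, 3 were called lower in replicate 2 and 0 higher, and the list summed to 2011 CPM in replicate 2 and 4237 CPM in replicate 1. Of 7 detected epithelial genes, 6 were called higher and 0 lower, and the list summed to 857 CPM and 216 CPM. Its highest genes, Mir203, Mir200c and Mir375, had log2 ratios of 2.03, 1.57 and 3.01, each above those of Mir142 and Mir223. Of 5 detected striated muscle genes, 4 were called lower and 0 higher, with sums of 4909 CPM and 5725 CPM. With Mir208a and Mir499 as scale, 2 of these 5 were called lower and 2 higher, beside 53 lower and 164 higher among all 316 genes. Mir208a, called lower, and Mir499, called higher, make up that scale, so that they lie on opposite sides of it is by construction. The endothelial gene Mir126a was at 57714 CPM in replicate 2 and 129043 CPM in replicate 1. The hepatocyte gene Mir122 was low in both, at 17.1 and 23.9 CPM. Of the measured genes on these lists, 0 had no count in both libraries. The part of these differences in those of Mir150, Mir142 and Mir223 was not tested.

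The genes closest to each in level over the 2 libraries were found by distance in log2(CPM + 1). Closest to Mir150 were Mir140, a cartilage microRNA (distance 0.19), Mir145a, of smooth muscle (0.23), and Mir151 (0.91). Closest to Mir142 were Mir10b (0.18), Mir342 (0.48) and Mir324 (0.59). Closest to Mir223 were Mir541 (0.28), Mir490 (0.47) and Mir411 (0.51). With 2 libraries this likeness rests on 2 values per gene, and genes of quite different tissues meet it: the 31882 counts of Mir140 in replicate 2 and 7454 in replicate 1 lie close to the 28443 and 7935 of Mir150.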

How the data were processed

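MicroRNA-seq libraries from total RNA of heart were analysed, 2 samples of 1 group. Each library came as raw counts for every microRNA gene, deposited without a header, for reads on either, the sense and the antisense strand. Assembly mm10 and annotation GENCODE M21 are named in the deposited readme texts; the aligner and counter are not given in the sources. All 2202 identifiers matched that annotation. The 4 rows that name no gene (unmapped, multimapping, featureless and ambiguous reads, in that order 16.2%, 43.2%, 5.75% and 0% of the sense column of replicate 2 and 14.9%, 43.9%, 5.07% and 0% of replicate 1) were left out of totals and tests.

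CPM used the sense totals. Genes with 10 counts or more in each library were compared by an exact binomial test with TMM effective sizes (edgeR 4.0.16), since 1 group allows no model-based contrast; ratios by Fisher's exact test. Steps were tested on simulated data. Alternatives were DESeq2 1.42.0 size factors, library totals, the either-strand column, other minimum counts, thinning, other denominators and, chosen after seeing the data, scaling by Mir208a and Mir499. Scripts ran under Python 3.11.15 with scipy 1.17.1, pandas 2.3.3, numpy 2.4.6 and matplotlib 3.10.9, and under R 4.3.3. The genes of the set and the lists were chosen with earlier results of these data known. Named genes are the set, the 3 nearest in level to each and the highest 3 of each list. Mir511, Mir181a-2, Mir181b-2, Mir3107, Mir133b, Mir133a-1, Mir1a-1, Mir200b and the neighbours in rank were named after their values were seen.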

Additional observations from a re-analysis of the deposited data

How the results depend on the processing

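The log2 ratios of Mir150, Mir142 and Mir223 stayed above 0 and called by the exact binomial test under each alternative that gave a value. They ranged from 1.54 to 1.93 for Mir150 (7 alternatives), from 1.04 to 1.42 for Mir142 (6) and from 1.10 to 1.49 for Mir223 (7), highest with Mir208a and Mir499 as scale. Other minimum counts leave each ratio unchanged and thinning redraws the same counts, so these alternatives could hardly move a ratio. Mir142b, at 0 counts, gave no ratio. The number of called genes was within 136 to 217, out of different numbers tested. It was 191 of 316 in the main setting, 136 of 181 with 100 counts or more in each library and 204 of 708 without a filter. The share called thus depended on the filter. The balance of calls depended on scaling: 105 were higher and 86 lower with TMM, 128 and 70 with library totals, 93 and 94 with DESeq2 size factors and 164 and 53 with Mir208a and Mir499 as scale. Median log2 ratios of all genes were 0.05, 0.18, 0 and 0.39 in that order. In the other leukocyte list, Mir155 and Mir181b-2 are not called with DESeq2 size factors. With Mir208a and Mir499 as scale, Mir133b, Mir3107 and Mir200b are called higher in replicate 2, and Mir1a-2 and Mir122 are not called. Mir499 is also called higher on that scale, but it is part of it. Its call says only that its ratio lay above that of Mir208a, the other part. With library totals, Mir3107 is called higher, which gives the erythroid list 1 higher and 3 lower, and Mir122 is not called. With reads on either strand, Mir142 falls to 0 CPM and its ratio to Mir223 to 0, by the overlap with Mir142b, and the ratio of Mir150 to Mir142 has no value. With all reads as denominator, Mir150 averages 1772, Mir142 334 and Mir223 80.2 per 1000000 reads, and the set averages 0.219% of reads. All of these are lower than in the main setting by the larger denominator. Leaving out a library gives the values of the other: 2345 to 7737 CPM for Mir150, 570 to 1323 CPM for Mir142, 133 to 322 CPM for Mir223 and 0.305% to 0.938% for the set. No comparison is then left between libraries. No paired analysis was possible because there is 1 group. Mir142b below 0.816 CPM in replicate 2 is not detectable at this depth.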
